A study of Mus musculus with 384 samples.

Results

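The 10 genes described here encode integrin subunits of epithelial cells: the alpha subunits Itga1, Itga3, Itga5, Itga6, Itga9 and Itgav, and the beta subunits Itgb1, Itgb5, Itgb6 and Itgb8. They were chosen by name from the 49585 genes of the count table, not by their levels. An integrin is a membrane receptor made of 1 alpha and 1 beta chain, and it anchors a cell to matrix proteins and passes signals both ways across the membrane. In the mammary gland, basal (myoepithelial) cells rest on the laminin- and collagen-rich basement membrane and luminal cells line the duct lumen. Surface levels of Itgb1 protein (CD29) and Itga6 protein (CD49f) are the usual handles for sorting these layers.

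The study sequenced sorted mouse mammary cells by Smart-seq2, which reads whole transcripts of single cells, in a plate of 384 wells. Embryonic progenitors came from skin of female Lgr5-EGFP-IRES-CreER embryos at embryonic day 14, with the mammary buds in it, and were sorted as high for CD49f and for the Lgr5 reporter. Lgr5 is a receptor of the Wnt pathway, and its green reporter marks cells by their Lgr5 activity. Adult basal cells (CD24+CD29Hi) and luminal cells (CD24+CD29Lo) came from mammary glands labelled Rosa-tdTomato, with neither age nor parity given in the sources used here. In every gate, cells with CD45, CD31 or CD140a, the surface proteins of blood, endothelial and fibroblast-type cells, were sorted out. Itgb1 and Itga6 were therefore used, as proteins, to choose the cells in which their transcripts were then read.

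Single cells with at least 50000 reads on genes were kept, 347 in all, and 10 embryonic, 10 basal and 9 luminal wells fell below that limit. Their median depth was 697578 reads in the embryonic, 450196.5 in the basal and 525176 in the luminal gate. Each gate also had 1 well of 50 cells, with 532820 to 621792 reads. The labels name no animal, so every gate counts as 1 sample, its cells stand for no replicates, and gate differences are given without a test. Ranges in brackets after a fold or a share are exact 95% intervals of the reads or cells counted (conditional binomial for a ratio of reads, Clopper-Pearson for a share of cells). They cover the error of counting reads or cells only. PCR copies were read without molecular identifiers and count as separate reads, so the range of a ratio is too narrow for counted molecules. In a gate's summed reads, fewer cells of a type and less RNA per cell cannot be told apart. Most basal wells lay in plate rows A to F, most luminal wells in F to K and most embryonic wells in K to P. Gate and place on the plate therefore cannot be told apart for any member. The same holds for stage and mouse line between the embryonic and adult gates.

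Some wells went against their gate. By rank correlation with the wells of 50 cells, 8 basal cells were closest to the luminal well and 2 to the embryonic well, against 1 embryonic and 3 luminal cells that were closest to another gate's well. At least 3 fibroblast markers were detected in 22 embryonic, 6 basal and 0 luminal cells, and at least 3 endothelial markers in 6 basal cells. All 8 fibroblast markers had a read in the embryonic gate, where a cell's summed level ran from 0 to 93936 CPM (reads of a gene scaled to the gene reads of its cell or gate) with a median of 233, and all 8 had a read in the basal gate (0 to 21730, median 1673), where Postn (1475 CPM) and Dcn (924 CPM) led. The luminal gate had a median of 0. Endothelial markers summed to at most 402 CPM in an embryonic and 10352 CPM in a basal cell. Kdr, Tek and Emcn were at 0 in the luminal gate. The defining immune gene Ptprc was at 0 in the embryonic and luminal gates and at 0.0733 CPM in the basal gate. Results that move without these cells are given with both values, and the part of such cells in the other results was not tested.

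The stretch of DNA before the start of a gene is where much of its control sits, and it is shown for a pair of subunits read in every gate (Itgb1, Itgb5) and a pair almost unread in at least 1 gate (Itga1, Itgb6). The sequences are RefSeq promoter windows (GRCm38.p6), shortened where the GENCODE gene begins earlier, and run 5′ to 3′ on the gene's strand. Capitals mark a GC box, GGGCGG on either strand, the core of the site read by Sp-family factors.
Itgb1, chr8:128685404-128685653, plus strand: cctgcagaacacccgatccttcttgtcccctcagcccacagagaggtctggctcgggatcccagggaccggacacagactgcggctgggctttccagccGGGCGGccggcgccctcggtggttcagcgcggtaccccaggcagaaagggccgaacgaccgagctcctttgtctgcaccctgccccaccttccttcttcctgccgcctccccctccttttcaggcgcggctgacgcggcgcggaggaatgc
Itgb5, chr16:33829415-33829664, plus strand: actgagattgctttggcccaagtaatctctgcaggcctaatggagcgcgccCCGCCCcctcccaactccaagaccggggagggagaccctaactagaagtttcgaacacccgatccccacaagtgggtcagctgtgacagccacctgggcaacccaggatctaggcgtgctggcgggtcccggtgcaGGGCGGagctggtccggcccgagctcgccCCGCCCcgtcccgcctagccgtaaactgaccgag
Itga1, chr13:115101965-115102214, minus strand: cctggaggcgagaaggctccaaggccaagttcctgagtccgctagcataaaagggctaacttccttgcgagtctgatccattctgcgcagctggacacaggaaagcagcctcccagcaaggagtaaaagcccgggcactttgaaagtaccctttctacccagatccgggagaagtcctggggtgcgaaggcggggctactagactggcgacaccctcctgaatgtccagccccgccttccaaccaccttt
Itgb6, chr2:60722644-60722853, minus strand: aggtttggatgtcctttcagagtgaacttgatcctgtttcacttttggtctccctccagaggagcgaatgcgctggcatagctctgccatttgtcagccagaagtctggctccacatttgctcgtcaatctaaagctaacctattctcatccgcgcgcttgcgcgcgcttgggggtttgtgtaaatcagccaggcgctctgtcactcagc
The table held a window of the 250 bases before an annotated start for 9 of the 10 genes, all but Itga6. The windows of Itga9 and Itgb8 lay inside the GENCODE gene, so they do not show the bases before its first base. A GC box lay in the windows of 4 of the 9 genes (Itga3, Itga5, Itgb1 and Itgb5), against 32.7% of all 32851 windows of that length. The printed pairs do not stand for all members: Itgav, read in every gate, had no GC box, and Itga5, at 5.68 CPM in luminal cells, had 2. Itga9, at 1.74 CPM in luminal cells, had none in its window inside the gene. Whether a GC box goes with the level of a member was not tested. The printed stretches held 21 CG pairs for Itgb1, 18 for Itgb5, 10 for Itga1 and 10 for Itgb6, where the median over all full windows was 6. TGANTCA, the AP-1 motif, lay in none of the 9 genes' windows and in 6.75% of all. A match is a description of letters and not a bound site.

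Scaled per kilobase of exon, which lets genes be compared, Itga6 and Itgb1 led in all 3 gates. In embryonic cells Itga6 was at 110.4 CPM per kilobase, Itgb1 at 61.7 and Itgb5 at 49.4, and every other member was under 8. In basal cells Itga6 was at 107.4 CPM per kilobase, Itgb1 at 90.7, Itgav at 27.9 and Itgb5 at 26.8. In luminal cells the order of the leading pair was the other way round, with Itgb1 at 70.0 CPM per kilobase and Itga6 at 41.9. The basal well of 50 cells also had Itgb1 (197 CPM per kilobase) above Itga6 (157), and the luminal well had Itgav (38.1) above Itga6 (35.6), so the order of these neighbours is not settled. Itgb5 was at 9.51 CPM per kilobase in the embryonic and 6.08 in the basal well, far under its summed levels. At the low end, Itga1 was last in the embryonic (0.228 CPM per kilobase) and luminal (0.0110) gates and Itgb6 was last in the basal gate (0.0645).

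**Figure D1:**
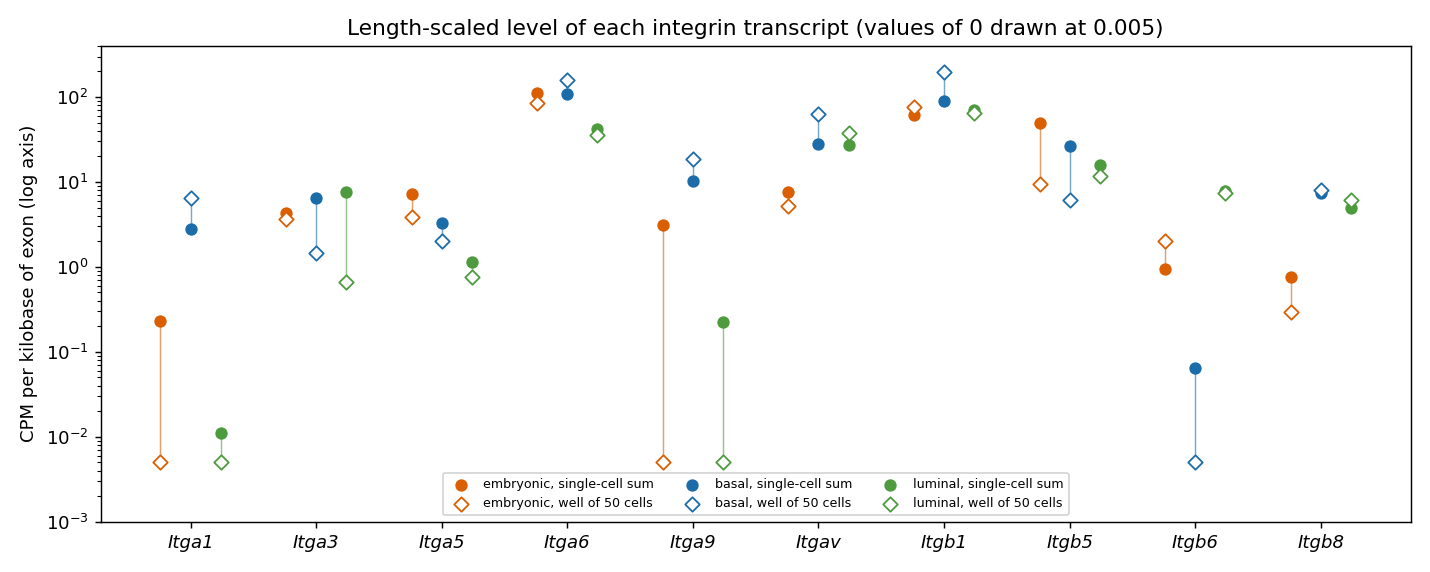
Length-scaled level of each integrin transcript (y axis, CPM per kilobase of exon, log axis) by gene (x axis), with summed single cells as filled circles and wells of 50 cells as open diamonds, joined by a line; values of 0 are drawn at 0.005. Among summed cells Itga6 and Itgb1 stand highest in each gate, and Itga1, Itga9 and Itgb6 are the members at or near 0 in some gates.

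Between gates, a member was measured where it reached 5 CPM in either gate and called where its log2 ratio, with 1 CPM added to both levels, passed 1 in size (2-fold). Embryonic over basal cells, 2 of 10 members were at least 2-fold higher (Itga5, Itgb6), where 33.8% of all 12808 measured genes were, and 4 were at least 2-fold lower (Itga1, Itga9, Itgav, Itgb8), where 19.4% were. The members' median log2 ratio was -0.56 and that of all measured genes 0.38. Embryonic over luminal cells, 4 of 9 measured members were higher (Itga5, Itga6, Itga9, Itgb5; 39.3% of all genes) and 3 lower (Itgav, Itgb6, Itgb8; 17.6%), with medians of -0.18 for the members and 0.58 for all genes. Basal over luminal cells, 4 of 10 were higher (Itga1, Itga5, Itga6, Itga9; 28.3% of all genes) and 1 lower (Itgb6; 21.3%), with medians of 0.65 and 0.14. With so few members, these counts are read only against those background shares. Without the wells that matched another gate or carried markers of another type, the 2 higher members of the embryonic and basal comparison became 1, Itgb6, and the other 5 counts stayed as they were. Between wells of 50 cells, embryonic over basal, 2 of 10 members were higher (Itga3, Itgb6; 37.6% of all measured genes) and 5 lower (Itga1, Itga9, Itgav, Itgb1, Itgb8; 30.5%). Embryonic over luminal, 3 of 8 were higher (Itga3, Itga5, Itga6; 44.1%) and 3 lower (Itgav, Itgb6, Itgb8; 22.2%). Basal over luminal, 5 of 10 were higher (Itga1, Itga5, Itga6, Itga9, Itgb1; 40.8%) and 1 lower (Itgb6; 27%). The counts thus stand partly on other members than in the sums.

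**Figure D2:**
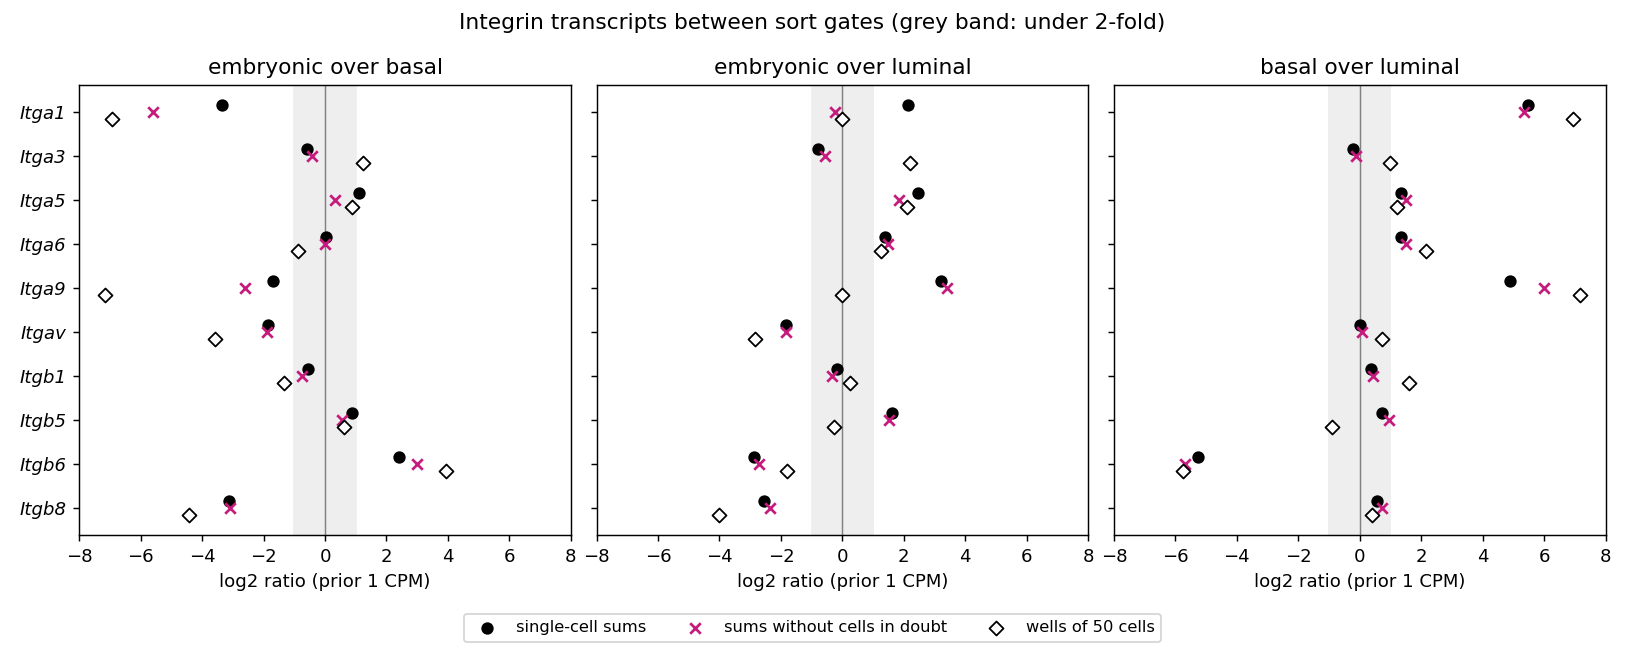
Log2 ratio of each integrin transcript between gates (x axis, 1 CPM added to both levels), by gene (y axis), from summed single cells (circles), from the sums without cells in doubt (crosses) and from wells of 50 cells (diamonds); the grey band marks differences under 2-fold. Itgav and Itgb8 lie left of the band in both embryonic comparisons by all 3 measures, and the circle of Itga1 in embryonic over luminal cells is drawn although both levels were under the 5 CPM minimum.

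Itga6 (ENSMUSG00000027111.15, chr2:71745616-71858416, plus strand) encodes the alpha chain of the laminin receptors, with Itgb1 or, in hemidesmosomes, with Itgb4. Single embryonic cells ranged from 0 to 11132 CPM with a median of 927, basal cells from 0 to 9742 with a median of 710, and luminal cells from 0 to 2344 with a median of 196. The 3 ranges overlap, and only 2 embryonic and 4 basal cells had no read, against 17 luminal cells. Summed, the level was 997 CPM in embryonic and 969.6 CPM in basal cells, a ratio of 1.03 (1.02 to 1.04), and 378.5 CPM in luminal cells. The basal to luminal fold was 2.56 (2.52 to 2.60) in sums and 4.43 (3.75 to 5.25) between the wells of 50 cells. The embryonic to luminal folds were 2.63 and 2.42 by these measures. The embryonic and basal gates were not ordered by these data: the embryonic level was 1.83-fold lower (1.64 to 2.05) in the well of 50 cells, and the sign of the ratio held in 8 of 16 other settings. Among those settings, a prior of 5 CPM and no minimum level could not change the sign. Embryonic cells were sorted as CD49f-high and adult cells were not sorted on CD49f, so the sort and the stage cannot be told apart for Itga6. Reads of the genes that overlap it (Gm13662 and Gm13663 on its strand, Gm13739 and Gm17250 on the other) may be shared, since the strand mode of the counting is not given in the sources used here.

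Itga3 (ENSMUSG00000001507.16, chr11:95044474-95076801, minus strand), the alpha chain of another laminin receptor, was at 24.7 CPM in embryonic cells, 37.1 in basal and 43.6 in luminal cells. It differed by less than 2-fold in each comparison. Few cells carried most of it: the median cell had 0 CPM in every gate, and the highest single values were 279, 845 and 845 CPM. The wells of 50 cells had the opposite order, with 20.9 CPM in the embryonic, 8.31 in the basal and 3.75 in the luminal well, on 13 or fewer reads each.

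The collagen receptor chain Itga1 (ENSMUSG00000042284.9, chr13:114953096-115101964, minus strand) was a basal transcript in these gates. Its summed level was 52.4 CPM in basal, 4.25 in embryonic and 0.205 in luminal cells, and the wells of 50 cells had 121.3 CPM in the basal well and no read in the other 2. The basal level was 12.3-fold above the embryonic (11.1 to 13.8) and 256-fold above the luminal one (152 to 469), the latter on 14 luminal reads. It was still rare among basal cells: 73 had no read, and the 5 cells with most reads held 79.5% of them, 1 of them 32.4%. Of the basal reads 82.97% lay in the 92 cells that matched the basal well and had under 3 endothelial markers. Those cells held 79.9% of the basal gate's reads over all genes, a similar share. All 382 embryonic reads lay in the 22 cells with fibroblast markers, and the other embryonic cells had none. Without the wells in doubt the embryonic to basal log2 ratio was -5.61 in place of -3.35. Itga1 overlaps Pelo on the same strand.

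Itga9 (ENSMUSG00000039115.13, chr9:118606690-118901003, plus strand), whose product binds tenascin and osteopontin among other ligands, had the same gate order. It was at 79.9 CPM in basal, 24.1 in embryonic and 1.74 in luminal cells, and at 143 CPM in the basal well of 50 cells with no read in the other wells. Basal cells exceeded embryonic cells 3.32-fold (3.15 to 3.49) and luminal cells 45.9-fold (38.2 to 55.5). All basal reads lay in cells that matched the basal well and had under 3 endothelial markers, among which 16 of 92 cells (17.4%) passed detection. In the embryonic gate 10.2% of cells had a read, and the cells with fibroblast markers, which held 17.02% of the gate's reads, held 47.8% of its Itga9 reads. Its embryonic level was 67.7 CPM in those cells and 15.2 CPM in the others. Without the wells in doubt the log2 ratio, embryonic over basal, was -2.60 in place of -1.69, and basal over luminal it was 6.003 in place of 4.88. The embryonic excess over luminal cells, 13.8-fold (11.5 to 16.8) in sums, was not seen between the wells of 50 cells, where neither had a read.

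The fibronectin receptor chain Itga5 (ENSMUSG00000000555.7, chr15:103344286-103366763, minus strand) ran the other way, with 35.8 CPM in embryonic cells, 16.1 in basal and 5.68 in luminal cells. The wells of 50 cells had that order, at 19.3, 9.97 and 3.75 CPM, but on only 12, 6 and 2 reads. The embryonic to luminal fold was 6.31 (5.68 to 7.03), and the embryonic to basal fold 2.23 (2.07 to 2.41). A single basal cell held 57.2% of the basal reads, and 99 basal cells had none; without the cell with most reads in each gate the embryonic to basal log2 ratio was 2.03 in place of 1.11. Embryonic reads of Itga5 came to 46.8% from cells with fibroblast markers, where its level was 98.5 CPM against 22.97 CPM in the others. Without the wells in doubt its log2 ratio was 0.32 over basal cells and 1.84, in place of 2.46, over luminal cells.

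Itgav (ENSMUSG00000027087.11, chr2:83724397-83806916, plus strand) encodes the alpha chain shared by the receptors for RGD-bearing ligands and pairs with Itgb1, Itgb3, Itgb5, Itgb6 or Itgb8. It was low in embryonic cells and near equal in both adult gates: 81.5 CPM in embryonic cells, 299.95 in basal and 296 in luminal cells. Median cells were at 14.3 CPM (range 0 to 797), 50.8 (0 to 4724) and 143 (0 to 4779.7), so single-cell ranges overlap. The embryonic level was 3.68-fold below the basal (3.58 to 3.78) and 3.63-fold below the luminal level (3.53 to 3.73). In the wells of 50 cells it was 12.04-fold below the basal (8.52 to 17.5) and 7.27-fold below the luminal well (5.07 to 10.7). The 16 other settings all kept both directions, though a prior of 5 CPM and no minimum level could not change them. Basal over luminal, the ratio was 1.01 (0.993 to 1.04) in sums and 1.66 (1.40 to 1.96) between wells of 50 cells.

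**Figure D3:**
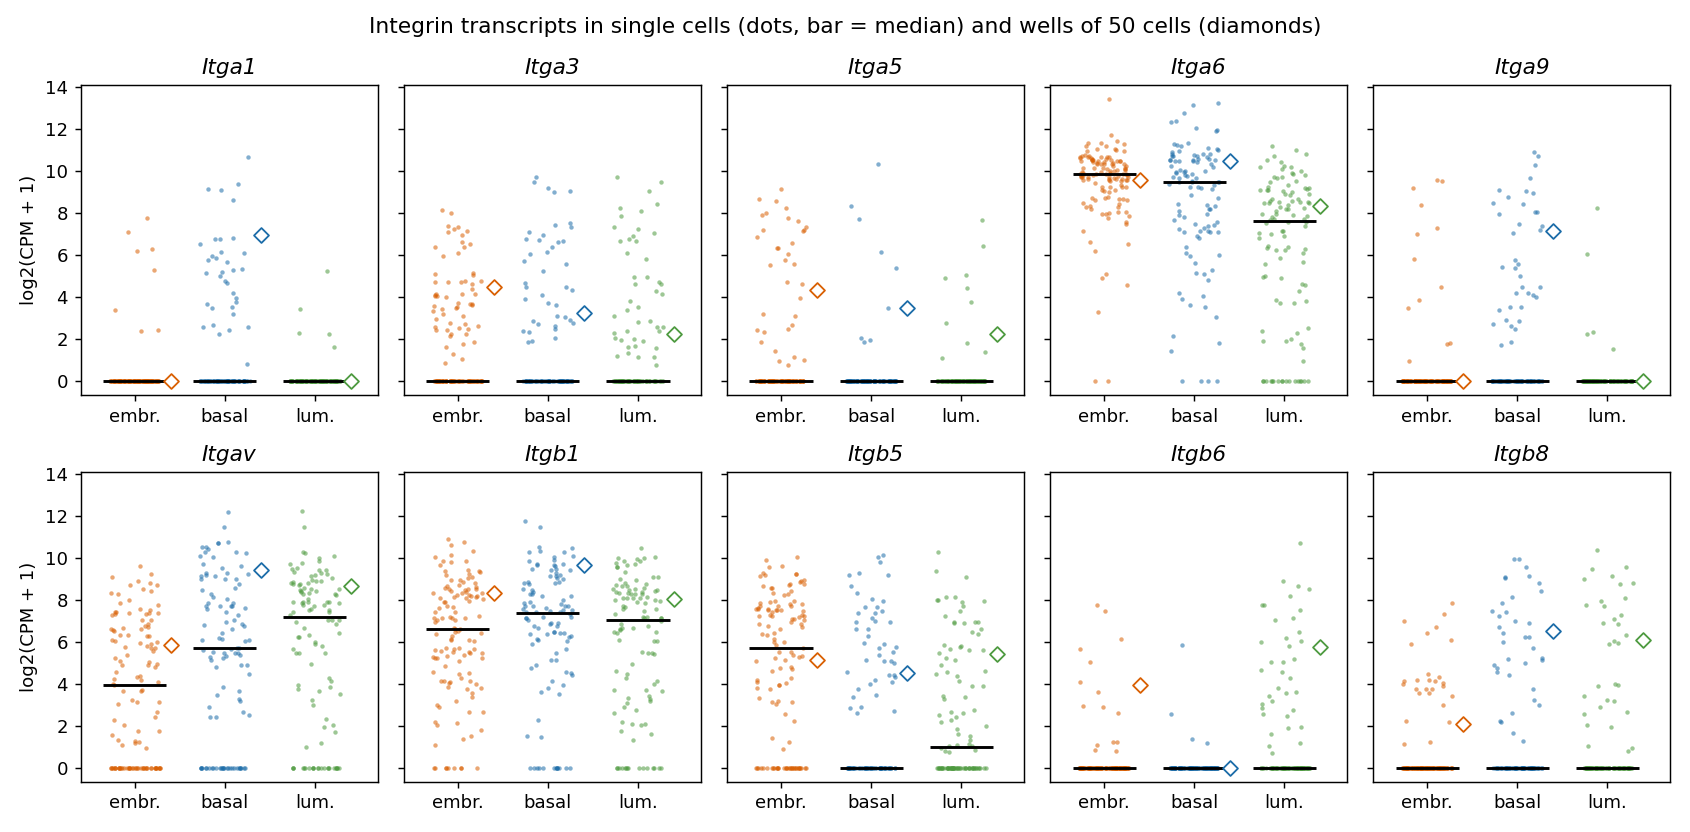
Level of each integrin transcript in single cells (dots, y axis log2(CPM + 1)) by gate (x axis), with the median cell as a bar and the well of 50 cells as a diamond. Itga6 is read in nearly every embryonic cell, while Itga1, Itga5, Itga9, Itgb6 and Itgb8 have a median of 0 in all gates with a few cells far above it.

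Among the beta chains, Itgb1 (ENSMUSG00000025809.15, chr8:128685654-128733200, plus strand) is the common partner of most alpha subunits and encodes CD29, the protein that split the adult gates. Its transcript differed little between them. Single basal cells ran from 0 to 3448 CPM with a median of 165, luminal cells from 0 to 1419.5 with a median of 131.5, and embryonic cells from 0 to 1906 with a median of 95.5. The ranges overlap almost fully. Summed levels were 370.1 CPM in basal, 286 in luminal and 252 in embryonic cells. The CD29-high gate thus exceeded the CD29-low gate 1.30-fold (1.27 to 1.32) in summed transcript, against 3.04-fold (2.51 to 3.69) between their wells of 50 cells, which had 804 and 265 CPM. The embryonic well, at 315 CPM, was 2.55-fold below the basal one (2.16 to 3.03). It lay above the luminal well, at a ratio of 1.19 (0.954 to 1.49), where the sums had it below. Equally thinned, 62.04% of basal cells (52.2% to 71.2%), 54.5% of luminal cells (44.8% to 63.9%) and 51.2% of embryonic cells (42.2% to 60.1%) passed detection, and these intervals overlap.

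Itgb5 (ENSMUSG00000022817.14, chr16:33829665-33949338, plus strand), the beta chain of a vitronectin receptor with Itgav, was highest in embryonic cells by sums. It was at 175 CPM there, 95.1 in basal and 56.7 in luminal cells. The median embryonic cell had 50.5 CPM (range 0 to 1050.3), the median basal cell 0 (0 to 1119.5) and the median luminal cell 0.979 (0 to 1227). The embryonic to luminal fold was 3.10 (2.99 to 3.21) and the embryonic to basal fold 1.84 (1.79 to 1.90), under the 2-fold limit. The wells of 50 cells did not bear out this order, at 33.8 CPM in the embryonic, 21.6 in the basal and 41.3 in the luminal well, and the embryonic to luminal ratio there was 0.818 (0.428 to 1.56). Depth also moved with it: across the kept embryonic cells its log2(CPM + 1) had a Pearson r of 0.44 with the cell's gene reads, and the embryonic gate had the highest median depth. With every cell thinned to 50000 reads the log2 ratio, embryonic over luminal, was 1.56 against 1.61 in sums. The thinned shares of cells were 43.3% in embryonic (34.5% to 52.4%), 17.6% in basal (10.9% to 26.1%) and 14.3% in luminal cells (8.39% to 22.2%).

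The products of Itgb6 and Itgb8 pair with Itgav and release active TGF-beta from its latent complex. Itgb6 (ENSMUSG00000026971.15, chr2:60598292-60722643, minus strand) was highest in luminal cells, at 55.6 CPM against 6.68 CPM for embryonic and 0.458 for basal cells. In the wells of 50 cells it had 52.6 CPM in the luminal, 14.5 in the embryonic and no read in the basal well. The luminal level was 121.2-fold above the basal (81.999 to 188) and 8.31-fold above the embryonic one (7.63 to 9.08). One luminal cell at 1696 CPM held 45.7% of the luminal reads, and 75 luminal cells had none. The basal gate had 25 reads in all, 84% of them in 1 cell. The embryonic to basal fold of 14.6 (9.78 to 22.7) rests on those reads and on 3 embryonic cells that passed detection. In log2 with the prior it was 2.40, and 3.00 without the wells in doubt.

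Itgb8 (ENSMUSG00000025321.14, chr12:119158022-119238802, minus strand) was an adult transcript here, at 80.98 CPM in basal and 54.4 in luminal cells against 8.36 in embryonic cells. The wells of 50 cells had 89.7, 67.6 and 3.22 CPM in the same order. The embryonic level was 9.68-fold below the basal (8.96 to 10.5) and 6.50-fold below the luminal level (6.01 to 7.04). The 16 other settings all kept both directions, though a prior of 5 CPM and no minimum level could not change them. In each gate most cells had no read: a read was found in 21.3% of embryonic, 34.3% of basal and 29.5% of luminal cells.

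**Figure D4:**
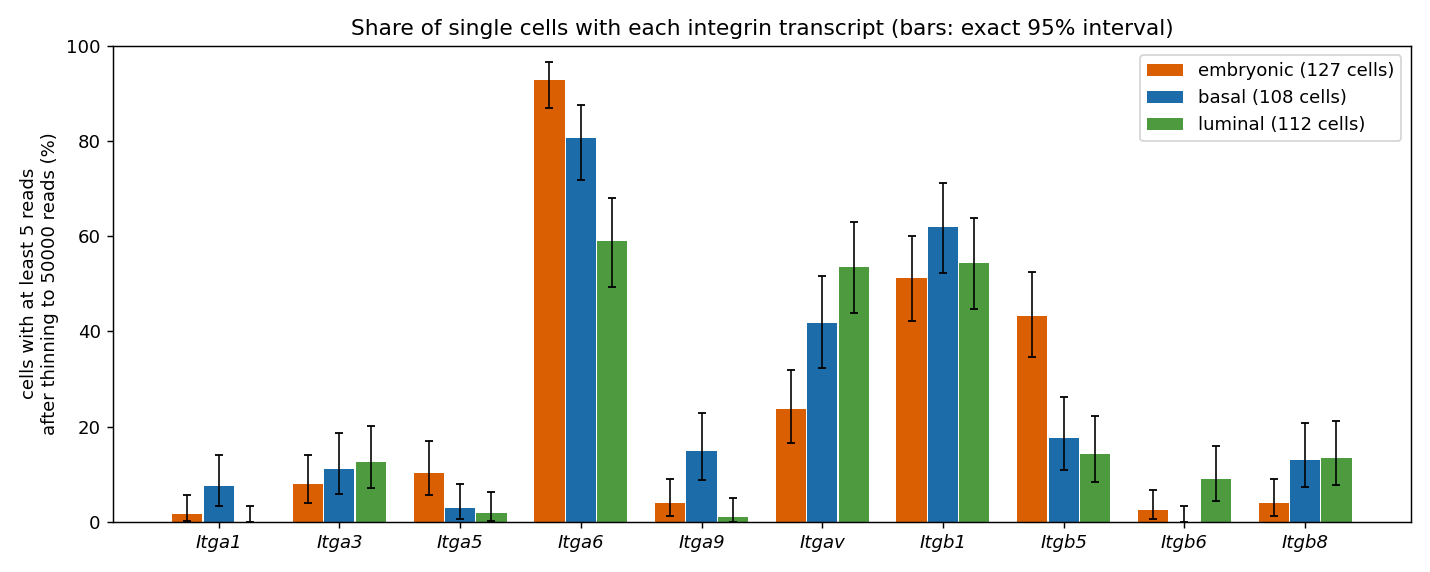
Share of single cells with at least 5 reads of each integrin transcript after every cell was thinned to 50000 reads (y axis, percent), by gene (x axis) and gate; error bars are exact 95% intervals of counting error. Itga6 falls from 92.9% of embryonic to 80.6% of basal and 58.9% of luminal cells, and Itgb5 is detected in 43.3% of embryonic cells against 17.6% and 14.3%.

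At an equal 50000 reads per cell and at least 5 reads for detection, Itga6 was detected in 92.9% of embryonic (86.97% to 96.7%), 80.6% of basal (71.8% to 87.5%) and 58.9% of luminal cells (49.2% to 68.1%). Before thinning, the shares with a level of 1 read or more reached 98.4%, 96.3% and 84.8%. Itgav was detected in 23.6% of embryonic, 41.7% of basal and 53.6% of luminal cells. The embryonic interval for Itgav, 16.5% to 31.97%, lies below both adult ones. The other 6 members reached at most 14.8% of a gate, Itga9 in basal cells. Itga1 passed detection in 0 luminal and Itgb6 in 0 basal cells, with upper bounds of 3.24% and 3.36% on the share that passes at this depth. Before thinning, 4.46% of luminal cells had a read of Itga1 and 3.70% of basal cells a read of Itgb6, so an undetected transcript is not an absent one. The 4 wells without a cell held 1 read of Itga6 and no read of the other members.

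Heterodimers need both chains in a cell. Itga6 and Itgb1 were detected together in 62 embryonic (48.8%), 54 basal (50%) and 47 luminal cells (41.96%). The other laminin receptor pair, Itga6 with Itgb4, was found in 21.3% of embryonic (14.5% to 29.4%), 7.41% of basal (3.25% to 14.1%) and 11.6% of luminal cells (6.33% to 19.03%). Itgav was found with Itgb1 in 16.5% of embryonic, 26.9% of basal and 34.8% of luminal cells. With Itgb5 it was found in 13.4%, 6.48% and 5.36%. Itgav with Itgb6 was seen in 9 luminal cells, 1 embryonic and 0 basal cells, and 9 of the 10 luminal cells with Itgb6 also had Itgav. Itgav with Itgb8 was seen in 6 basal, 5 luminal and 0 embryonic cells. Whether any pair met more often than the shares of its single chains would give was not tested.

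The median cell had 2 of the 10 transcripts in each gate, with a range of 0 to 6. No member was detected in 4 embryonic, 5 basal and 12 luminal cells. Itga6 was the only alpha subunit among the 6 in 75 embryonic, 30 basal and 21 luminal cells. Itgb1 came without any of the 6 alpha subunits in 1 embryonic, 7 basal and 7 luminal cells. Within luminal cells, log2(CPM + 1) of Itga6 and Itgb1 had a Pearson r of 0.56 over cells that share a gate and differ in depth. The same pair had an r of 0.11 over embryonic and 0.03 over basal cells.

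The luminal gate held both luminal kinds, and several members differed between them. Cells were split by whether genes of hormone-sensing cells (Prlr, Esr1, Pgr and others) or of secretory cells (Csn3, Lalba, Elf5 and others) summed higher, which gave 48 and 64 cells, with 1 cell near the dividing line. This split marks a range and not a type. In the first set the hormone-sensing genes had a median summed level of 9088 CPM and the secretory genes 209.6 CPM. In the second the medians were 68.3 and 27632 CPM. The median depth was 769586 reads in the hormone-sensing and 481234 in the secretory set.

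Itgb1 was 3.16-fold higher in the hormone-sensing set (3.06 to 3.27), at 437 against 138 CPM, and was detected after thinning in 75% (60.4% to 86.4%) against 39.1% (27.1% to 52.1%) of cells. Itga6 was 2.08-fold higher (2.03 to 2.14), at 514 against 247 CPM, with 79.2% against 43.75% of cells. Itgb5 was 3.99-fold higher (3.69 to 4.31), at 91.4 against 22.9 CPM. The hemidesmosome chain Itgb4 moved with them, at 75.8 against 22.5 CPM. Itgav differed little, at 318 against 274 CPM.

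Itgb8 was almost entirely a secretory-set transcript within the luminal gate. It was at 107.02 CPM there and 0.326 CPM in the hormone-sensing set, 328-fold lower (183 to 658), and 99.7% of its luminal reads lay in the secretory set. It was detected in 15 of 64 secretory (23.4%) and 0 of 48 hormone-sensing cells. Itgb3, another partner of Itgav, was at 102.98 against 4.09 CPM and Itga8 at 116.75 against 0.593 CPM, both in the same direction. Itgb6 was at 73.97 CPM in the secretory and 36.7 CPM in the hormone-sensing set, but without the cell with most reads in each set the log2 ratio was -0.04 in place of -0.99. With no animal named, none of these differences could be tested over samples.

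**Figure D5:**
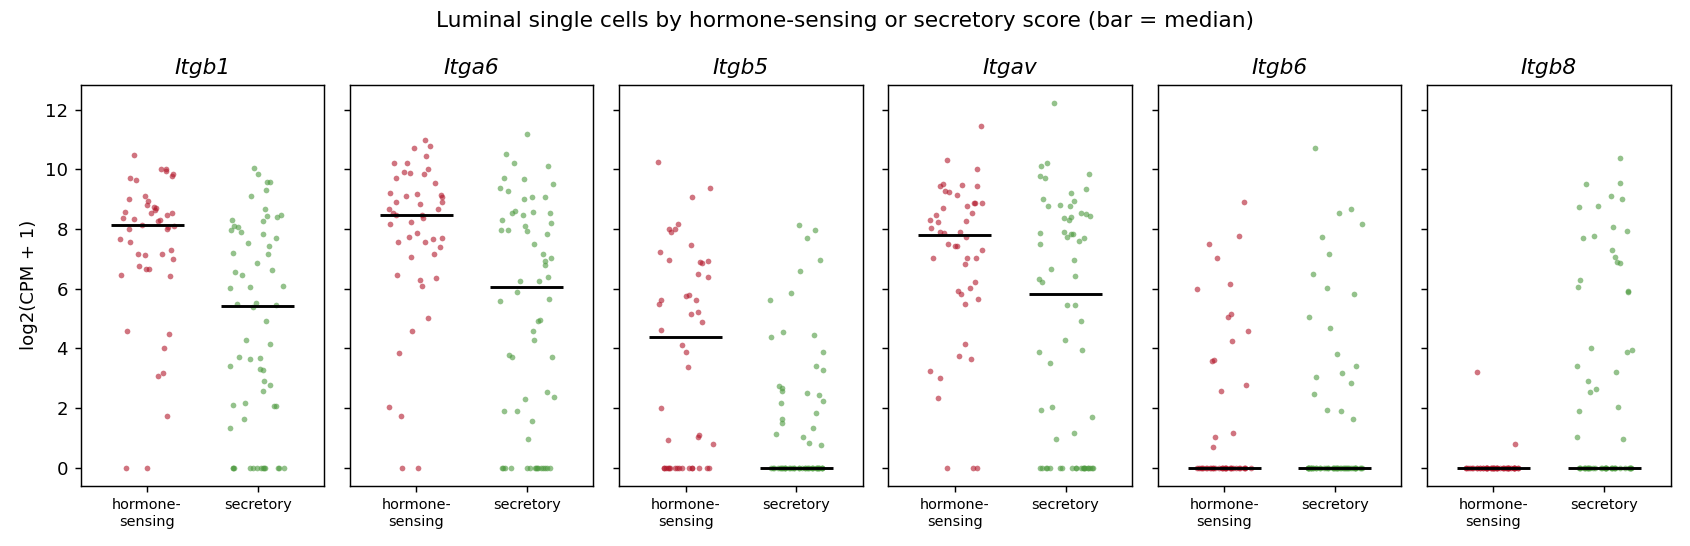
Level of 6 integrin transcripts in single luminal cells (y axis, log2(CPM + 1)), split by the higher of a hormone-sensing and a secretory gene score (x axis), with the median cell as a bar. Itgb1, Itga6 and Itgb5 sit higher in the 48 hormone-sensing cells, and Itgb8 is read almost only in the 64 secretory cells.

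Embryonic cells with fibroblast markers also differed from the other embryonic cells in their integrins. Those 22 cells had Itgb1 at 372 against 227 CPM and Itga6 at 683.5 against 1061 CPM. Itga3 was 13.6-fold lower in them (9.64 to 19.8), at 2.16 against 29.3 CPM. Of the embryonic reads of Itgb8 2.53% and of Itgb6 3.66% came from them, against 17.02% of all gene reads. In the basal gate, the 6 cells with endothelial markers had Itgav at 0.743 CPM against 315 CPM in the other basal cells, and no read of Itga9.

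Of the 16 other integrin subunits, 8 were measured between embryonic and basal cells, 2 of them higher (33.8% of all genes) and 4 lower (19.4%) in embryonic cells. The most abundant were Itga8, at 79.9 CPM in embryonic cells, 108.8 in basal and 59.5 in luminal cells, and Itgb4, at 65.3, 32.3 and 48.8. The wells of 50 cells had another order for Itgb4, at 17.7 CPM in the embryonic, 33.2 in the basal and 15.0 in the luminal well (11, 20 and 8 reads). Itgb3 ran from 2.51 CPM in embryonic to 17.9 in basal and 54.2 in luminal cells. Itga2, a collagen receptor chain, was at 2.02, 21.1 and 7.23 CPM, with no read in any well of 50 cells. Single cells carry these low values: 1 cell held all embryonic reads of Itgb3 and 57.5% of its basal reads, and 1 cell 77.5% of the embryonic and 52.4% of the luminal reads of Itga2. The leukocyte chains Itgb2, Itgad and Itgax had no read in any gate.

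Of the 23 activators and adaptors of integrin adhesions, such as talin, kindlins and filamin, 22 were measured between basal and luminal cells. Of these 10 were at least 2-fold higher in basal cells (28.3% of all genes) and 0 lower (21.3%). Between the basal and luminal wells of 50 cells, 12 of 20 were higher (40.8%) and 2 lower (27%). Flna, filamin A, was at 1032 CPM in basal, 489 in embryonic and 78.8 in luminal cells, a basal to luminal fold of 13.1 (12.7 to 13.5). Tln1, talin, was at 262, 75.6 and 87.2 CPM in the same order of gates. Parva, a partner of integrin-linked kinase, was at 304, 48.5 and 165 CPM, and Rsu1 of the same complex at 263, 101.3 and 59.1 CPM. Tns1, a tensin, was at 94.6, 31.5 and 0.966 CPM. Embryonic over basal, 2 of 22 were higher (33.8% of all genes) and 11 lower (19.4%), and embryonic over luminal, 5 of 20 were higher (39.3%) and 1 lower (17.6%). The wells of 50 cells had the embryonic and luminal levels of Parva and Rsu1 in the other order. Parva was at 307 CPM in the basal, 169 in the embryonic and 84.5 in the luminal well. Rsu1 was at 272, 32.2 and 48.8 CPM in the same order of wells.

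Laminin chains form the ligands of the Itga3 and Itga6 receptors, and of 9 chains measured between basal and luminal cells 6 were higher in basal cells (28.3% of all genes) and 0 lower (21.3%). Lama3 was at 251 CPM in basal, 80.98 in embryonic and 13.2 in luminal cells, and Lamb1 at 219, 111.8 and 7.29 CPM. Lamc1 was at 212, 95.1 and 44.1 CPM, Lamb3 at 137.1, 15.4 and 20.7, and Lama1 at 102.3, 60.4 and 7.78. In sums Lama5 and Lamb2 differed little between gates, but not in the wells of 50 cells. There Lama5 was at 28.9 CPM in the embryonic, 1.66 in the basal and 39.4 in the luminal well (18, 1 and 21 reads). Lamb2 was at 6.43, 71.4 and 13.1 CPM in the same order of wells (4, 43 and 7 reads). Lama2 was an embryonic transcript, at 33.5 CPM with no basal read. Of the 13 collagens and RGD-type ligands, 5 were higher (33.8% of all genes) and 7 lower (19.4%) in embryonic than in basal cells. Fn1, fibronectin, was at 697 CPM in embryonic cells against 1.36 in basal and 2.85 in luminal cells, and 21.8% of its embryonic reads lay in cells with fibroblast markers. For Col1a2, itself one of those markers, that share was 95.5%, and for Col1a1, at 613 CPM in embryonic cells against 0.788 in basal and 0.249 in luminal cells, it was 96.3%. Col4a1 and Col4a2, collagens of the basement membrane, were at 446 and 671 CPM in basal cells, 159.6 and 205 in embryonic and 8.19 and 6.25 in luminal cells. Nid1, nidogen, was at 115.9 CPM in basal, 67.1 in embryonic and 1.68 in luminal cells. Of its embryonic reads 79.3% lay in cells with fibroblast markers. Npnt, nephronectin, was at 128.6 CPM in embryonic cells, 0.99 in basal and 21.7 in luminal cells. Spp1, osteopontin, was at 10776 CPM in luminal, 515 in basal and 0.778 in embryonic cells. Of the basal reads of Spp1 86.6% lay in 1 cell, and the basal well of 50 cells had 29.9 CPM. Thbs1 was at 1362 CPM in basal cells, against 391 in luminal and 35.01 in embryonic cells. Mfge8, an RGD protein of milk fat globules that is also in the secretory score, was at 2157 CPM in luminal, 473 in basal and 50.1 in embryonic cells.

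Of the 12 genes for TGF-beta ligands, their latency proteins and receptors, 10 were measured between embryonic and basal cells, with 2 higher (33.8% of all genes) and 5 lower (19.4%) in embryonic cells. Latency proteins, which hold TGF-beta in the matrix, were split by gate. Ltbp1 was at 167 CPM in embryonic cells, 9.46 in basal (55.8% of it in 1 cell) and 35.7 in luminal cells, and Ltbp2 at 0.345, 309.8 and 6.26 CPM. Ltbp3 was at 36.7, 201 and 202 CPM, and Ltbp4 at 81.2, 80.1 and 1.95 CPM. The ligand Tgfb3 was at 5.60, 40.5 and 118.7 CPM in the same order. The co-receptor Tgfbr3 was at 527 CPM in basal cells against 90.4 in embryonic and 12.3 in luminal cells, and Tgfbr2 at 83.6, 22.5 and 226 CPM in that order. Of 10 membrane partners, 0 were higher (33.8% of all genes) and 3 lower (19.4%) in embryonic than in basal cells, among them Cd9 (330.3 against 1155.5 CPM) and Cav1 (47.1 against 904 CPM). Between the wells of 50 cells 1 partner was higher (37.6%) and 6 were lower (30.5%). Cd63 and Slc3a2 were at 624 and 280.4 CPM in embryonic cells and 738 and 543 in basal cells. Between the wells of 50 cells Cd63 went the other way, at 1045 CPM in the embryonic and 537 in the basal well. Slc3a2 kept its direction, at 196 and 520 CPM. Cd82 and Plaur were highest in luminal cells, at 288 and 110.8 CPM, against 45.1 and 31.2 in basal and 32.3 and 0.222 in embryonic cells. Cd24a, the transcript of the CD24 of the adult sort, was at 381 CPM in basal and 1533 in luminal cells, and at 1237 in embryonic cells. Pdgfra, the transcript of CD140a, on which cells were sorted out, was at 54.8 CPM in embryonic cells, 58.1 in basal and 4.59 in luminal cells.

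For each member the genes most alike over the 347 kept cells were ranked by Pearson r of log2(CPM + 1) among 8264 genes; cells share gates and depth, so r describes only. Itga6 was most like Krt5 (0.45), Marcks (0.45) and Krt14 (0.45), and Itga9 like Myh11 (0.44), Aebp1 (0.43) and Acta2 (0.43). Itga1 was most like Tpm2 (0.42), Postn (0.41) and Igfbp7 (0.41). Itgb8 was most like Mfge8 (0.35), Lcn2 (0.34) and Sox10 (0.33), and Itgb6 like Mal2 (0.38), Hbegf (0.33) and Myof (0.33). Itgb5 was most like Ctxn1 (0.38), Ssr2 (0.38) and Srd5a1 (0.38), and Itga5 like Pkdcc (0.36), Igsf10 (0.34) and Mmp11 (0.34). Itgb1 was most like Actg1 (0.35), Pdlim4 (0.32) and Tes (0.32), and Itgav like Cd9 (0.31), Myo1e (0.31) and Atp2a2 (0.30). For Itga3 the first were Gtf3a (0.26), Dcaf4 (0.25) and Dsp (0.23).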

How the data were processed

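The authors deposited read counts per gene and well in 1 table: 384 wells as columns, and 49585 genes plus 92 spike-ins as rows. Per the submitters' processing notes, cutadapt 1.13, STAR 2.5.2b, HTSeq 0.6.0 and GRCm38 were used. What each tool did, its options and the annotation: not given in the sources used here. GENCODE M21 gave symbols, coordinates and merged exon lengths. Of the identifiers 49326 matched (5577 by the unversioned identifier, as for Itga1, Itga5 and Itgb5) and 259 did not.

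Wells were grouped by their sort labels. A well with a title and a sort label from different gates entered no comparison. The 29 single wells under 50000 gene reads were left out, which kept 127 of 137 embryonic, 108 of 118 basal and 112 of 121 luminal cells. No doublet caller was run. Reads were summed over a gate's kept cells and scaled to its gene reads (CPM), without spike-ins. Ratios used a prior of 1 CPM, a minimum of 5 CPM and a 2-fold limit. Shares were counted at 5 reads after thinning to 50000 reads. No test was run, as each gate is 1 sample. Each cell was compared with the wells of 50 cells by Spearman correlation over 10315 genes. Other cell filters, scalings (edgeR 4.0.16 for TMM), priors, plate rows and subsets of cells were alternatives. The pericyte markers, the joint removal of cells in doubt and the left-out cells in the luminal split were chosen after seeing the data. The calculations were tested on simulated data, drawn without PCR copies and without differences between the cells of a gate. That test cannot show how the intervals fare with either.

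All 10 members were always named. Of the integrin-related lists up to 4 of the most abundant members were named, with any that reached 50 CPM in 1 gate and differed 4-fold; 1 gene is not reported here. Other genes printed there (Lama2, Lama5 and Lamb2 among them) were chosen after their values were seen, and marker lists are given in short. The members and the gene and marker lists (integrin, adaptor, laminin, ligand, TGF-beta, membrane partner, gate, epithelial, basal, luminal, fibroblast, endothelial, immune, melanocyte and Schwann cell genes) were chosen with earlier results of these data known. Protein sequences were not used here. Python 3.11.15, numpy 2.4.6, pandas 2.3.3 and scipy 1.17.1 were used.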

Additional observations from a re-analysis of the deposited data

Results flagged for a closer look

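The well titled as a luminal cell but sorted, by its label, as CD49f-high and Lgr5-high entered no comparison and held 774060 gene reads. It had 143 reads of Itga6, 13 of Itga3, 7 of Itgb8 and 1 of Itgav, above what the wells without a cell held, and no read of Itgb1. It had Csn3 at 15939 CPM, Krt8 at 1542.5 CPM and Lgr5 at 187 CPM, and no read of Krt5 or Krt14.

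Of the 4 wells without a cell, 1 had 1 read of Itga6 and the others had 0. With a single read in 1 well and 0 in the others this flag is always set, so the flag alone says little.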

How the results depend on the processing

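Of the members, 2 were at least 2-fold higher in embryonic than in basal cells, and this count became 0 with the mean of single-cell CPM and after thinning, where Itga5 fell to a log2 ratio of 0.70 and 0.59 and Itgb6, still at 1.83 and 2.19, was under the 5 CPM minimum. It was 1 with TMM scaling, median-of-ratios scaling, a total without the 100 top genes, a prior of 5 CPM, without cells with markers of other types, without both kinds of cells in doubt, without the cell with most reads in each gate, and in plate rows A to F alone. The number lower in basal than in luminal cells was 1 and became 3 in plate rows F to K alone, where 8 basal cells remained. The log2 ratio of Itgb6, embryonic over basal, was -0.086 in rows A to F (8 embryonic cells). For Itga9, embryonic over luminal, it was 0 in the wells of 50 cells, where neither had a read, and -0.15 in rows F to K. It was -0.28 for Itgb5, embryonic over luminal, in the wells of 50 cells, and -2.70 for Itga5, basal over luminal, in rows F to K. The causes were not tested, apart from the few cells of those rows. Over all settings 450 of 480 member ratios kept their sign and 73 moved by more than 1.5-fold. Of the called ones 5 lost their sign, the 4 negative values above and the one at 0 with no reads to compare. The settings with no minimum level and with a prior of 5 CPM reuse the summed levels and could not change a sign. Their 30 values each are counted among the 450. The wells of 50 cells gave 22 of the moves and 9 of the changes of sign. TMM scaling shifted all log2 ratios by -0.32 (embryonic over basal), -0.47 (embryonic over luminal) and -0.15 (basal over luminal). No paired analysis was possible because the labels give no replicate numbers and no test was run.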
